A study of Arabidopsis thaliana with 60 samples.

Results

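The regions described here carried H3K27me3, trimethylation of histone H3 at lysine 27, both when ULT1 was overexpressed (35S::ULT1) and when the demethylase REF6 was mutated (ref6-3), and lay under no peak of this mark in either wild type. A segment was a stretch covered by a peak in both 35S::ULT1 lists and both ref6-3 lists, of at least 200 bp, and a shared gain was a segment that touched no peak of the 2 Ler and 2 Col-0 lists. Of 7065 segments covered in all 4 mutant lists, 331 met this rule, with 280.4 kb in all. The regions were chosen by the H3K27me3 peaks of these 4 genotypes, so their H3K27me3 values are a description and carry no test. The K4 lists, the ult1 lists and the lists of the PRC2 mutants were not used in the choice.

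H3K27me3 is set by Polycomb repressive complex 2 (PRC2), whose catalytic subunit in Arabidopsis seedlings is CLF (CURLY LEAF) or SWN (SWINGER), and it marks genes that are kept silent. REF6 (RELATIVE OF EARLY FLOWERING 6) is a Jumonji demethylase that binds DNA through zinc fingers and removes the mark, so plants without it gain the mark at many loci. ULT1 (ULTRAPETALA1) has a SAND domain and is counted among the trithorax group, and is known for counteracting PRC2 at the floral gene AGAMOUS. Trimethylation at lysine 4 (K4) is found at the start of transcribed genes and is usually depleted where H3K27me3 is dense.

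All plants were 8-day-old seedlings. The single-end series held 35S::ULT1, which expresses ULT1 from the strong 35S viral promoter, the ult1-2 and ult1-3 mutants and their Ler (Landsberg erecta) wild type, and the ref6-3 mutant with its Col-0 (Columbia) wild type, with 2 libraries per genotype and mark. The paired-end series held H3K27me3 in ult1-3 clf-28 plants, in ult1-3 swn-7 plants, in the single mutants clf-28 and swn-7, in ult1-3 (here labelled Col-0, while the single-end ult1-3 goes with Ler) and in Col-0, with 1 deposited list per genotype. Whether the 2 libraries of a genotype came from separate plantings is not stated, so every p-value measures the spread between libraries, which may be technical. Seedlings were used whole, so a mark in fewer cells and a weaker mark in every cell cannot be told apart. The 12 single-end lists of H3K27me3 had between 6379 and 9945 peaks, with 8.79 to 22.4 M ChIP reads in them (M, mega). Both 35S::ULT1 lists were the longest, with 9578 and 9945 peaks, against 7753 and 7720 in Ler, while ref6-3 had 6883 and 7220, against 6379 and 6518 in Col-0. The reads inside peaks were 19.9 and 17.8 M for 35S::ULT1, against 20.02 and 14.4 M for Ler, and 11.3 and 19.6 M for ref6-3, against 18.0 and 8.79 M for Col-0. Peak lists do not show whether ULT1 was overexpressed or REF6 was missing, and neither gene held a shared gain.

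The shared gains were short and lay mainly inside genes. The quartiles of their width were 600 and 1000 bp, the median was 800 bp and the widest measured 3000 bp. Segments new in 35S::ULT1 but not in ref6-3 (1219) had the same median of 800 bp, and segments new in ref6-3 but not in 35S::ULT1 (425) had a median of 1400 bp. Protein-coding genes held 87.4% of the base pairs of the shared gains, against 72.8% for segments new in 35S::ULT1 only, 84.5% for segments new in ref6-3 only and 54.1% of the nuclear genome. A single protein-coding gene was touched by 291 of the 331, 2 genes by 13, and none by 27. The median distance to the nearest wild-type peak was 3.0 kb, 130 (39.3%) lay within 2 kb of one, and 5 adjoined one. Chromosomes 1 to 5 held 93, 40, 61, 48 and 89 of them, or 2.03 to 3.30 per Mb.

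The overlap of the 2 genotypes was partial in both directions. Of 1599 segments new in both 35S::ULT1 lists, 309 (19.3%) held a shared gain, and of 735 segments new in both ref6-3 lists, 249 (33.9%) did. In base pairs, 18.5% of what was new in 35S::ULT1 and 18.3% of what was new in ref6-3 was shared. The segments new in 35S::ULT1 covered 1.18% of the nuclear genome and those new in ref6-3 covered 1.01%. Of the 7065, 6173 lay wholly under wild-type peaks, and none had a share above 0 and under 10% of its length under them. Peaks lie on windows of 200 bp, so a short segment cannot have so small a share. The absence of such segments therefore does not show a clear gap at the rule. At the length limit, 9 shared gains were exactly 200 bp wide, and the windows allow no shorter segment.

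The ratio of ChIP to control reads at the shared gains was mostly higher in the ref6-3 lists than in the 35S::ULT1 lists. The authors' ratio of ChIP to control reads in the peak that held a shared gain had a median of 1.73 in 35S::ULT1 list 1 and 1.89 in list 3. Over all peaks of these lists the medians were 2.96 and 3.16. In ref6-3 the medians at the shared gains were 2.92 in list 1 and 2.73 in list 2, against 3.15 and 3.00 over all its peaks. The mean of the ref6-3 ratios exceeded the mean of the 35S::ULT1 ratios at 273 of the 331 shared gains, and the reverse held at 58. The peaks that held them were also narrower in 35S::ULT1, with a median width of 1000 bp in each list, against 1800 and 2000 bp in ref6-3. The ref6-3 peak was the wider one at 240 shared gains, the 35S::ULT1 peak at 77, and widths were equal at 14. Ratios are scaled by 1 constant per list, so their levels across lists depend on the authors' scaling. They also describe the whole peak, and the 2 mutants have different wild types (Ler and Col-0). Scaling, wild type and genotype cannot be told apart here, and the difference was not tested. At 225 of the 331, none of the 4 mutant peaks touched a wild-type peak. At the other 106, at least 1 mutant peak also ran into a wild-type peak elsewhere along its length. Such peaks held 24 and 30 shared gains in the 35S::ULT1 lists, next to 75 and 90 in the ref6-3 lists.

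**Figure D1:**
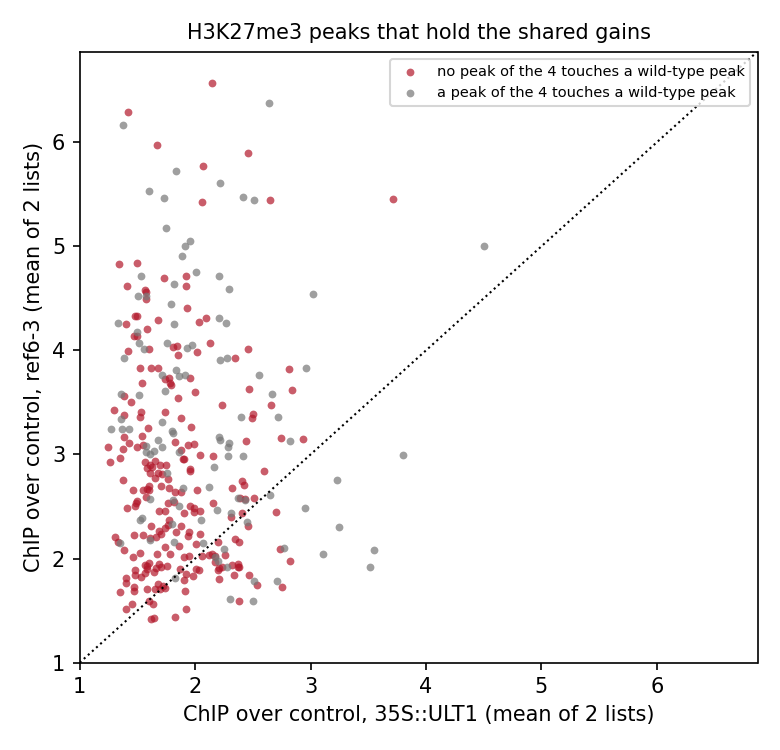
Ratio of ChIP to control reads in the H3K27me3 peak that held each shared gain, 35S::ULT1 on the x axis and ref6-3 on the y axis, each the mean of 2 lists; each point is 1 of 331 shared gains and the dotted line marks equal ratios. Most points, 273, lie above the line, with 35S::ULT1 between 1.25 and 4.50 and ref6-3 between 1.42 and 6.57.

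The 35S::ULT1 peaks at these places had a median ratio below that of their lists, and the number of shared gains depended on how many peaks were kept per list. With the 6379 peaks of highest ratio kept in each single-end H3K27me3 list, the rule gave 61 segments, and these touched 19 of the 331 shared gains. With peaks of q at or below 1e-10 only, it gave 325 segments, which touched 248 of the 331. Leaving out 1 of the 8 lists at a time gave 333 to 394 segments. When wild-type peaks were cut out of longer segments and the rest was kept, 960 segments remained.

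The 15 widest shared gains lay over EXPB3, GLR1.1, DFL1, CYP76C1, MSL5 and genes whose symbol is their locus. None of the 15 shared a base pair with an ult1-2, ult1-3 or paired-end Col-0 H3K27me3 peak. The widest (chr1:18835601-18838600) covered 50% or more of AT1G50830, with ratios of 1.49 and 1.73 in 35S::ULT1, next to 2.79 and 3.01 in ref6-3. EXPB3, a beta-expansin that loosens cell walls, was covered over nearly its whole body by a segment of 2600 bp (chr4:13999401-14002000). Here the ratios were nearly level, 2.85 and 3.03 in 35S::ULT1, next to 3.15 and 3.15 in ref6-3. GLR1.1, a glutamate receptor-like cation channel, was covered for 73.4% (chr3:1077801-1080200). DFL1, a GH3 enzyme that conjugates auxin to amino acids, was covered for 73.4% (chr5:22131601-22133600). At DFL1 the ratios differed widely, at 1.27 and 1.54 in 35S::ULT1, next to 4.53 and 3.98 in ref6-3. CYP76C1, a cytochrome P450, was covered for 67.6% (chr2:18776401-18778200), with 1.44 and 1.59 in 35S::ULT1, next to 4.32 and 3.82 in ref6-3. AT3G10890, listed as an endo-beta-mannanase (MAN3), which cuts cell wall mannan, was covered for 50% or more (chr3:3407601-3409600). The others covered 50% or more of AT3G21080, AT1G43600 with AT1G43605, AT5G55650, AT5G59230 with AT5G59240, AT2G19650, AT2G38090 and AT3G04960. MSL5, a mechanosensitive-like channel, and AT1G26730 were touched for under 50%.

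Over all shared gains, 314 of 27432 protein-coding genes (1.14%) were touched and 120 (0.437%) were covered for 50% or more of their body, which are called member genes below. Of the touched genes, 6 were covered in full. No annotated miRNA gene was touched, and 11 pseudogenes and 13 lncRNA or antisense RNA genes were. Lists of developmental regulators and other genes were touched at about the rate of all genes. Of 216 genes in 11 lists (flowering time, floral identity, meristem and boundary, leaf polarity, root and epidermis, seed and embryo, auxin, other hormones, light and clock, Polycomb and Trithorax, housekeeping), 2 were touched (0.926%, against 1.14% of all protein-coding genes) and none was covered for 50%. Both belong to the auxin list: LAX2, an auxin influx carrier, with 15.5% of its body, and ABCB14, an ABC transporter, with 16.1%. In the wild types, 100 of the 216 were already covered for 50% in all 4 lists, 126 were touched by a wild-type peak, and the rule leaves out segments that touch such peaks.

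Gene families were read from symbols after the touched genes had been seen, so their counts are a description. Of 229 cytochrome P450 genes, 7 were touched (CYP86A4, CYP96A1, CYP76C1, CYP78A6, CYP77A6, CYP83B1 and CYP712A2). Some of these enzymes make cuticle lipids, as CYP86A4 and CYP77A6 do in the flower, and CYP83B1 makes indole glucosinolates. Among cell wall proteins, 3 of 33 expansins (EXPA15, EXPB3 and EXLA2) and 1 of 31 xyloglucan hydrolases (XTH12) were touched, each for 50% or more. Of 88 ion channel and cation exchanger genes, 8 were touched, among them the potassium transporter KT2/3, which held 2 separate shared gains, and the cation exchanger CAX7. Of 124 ABC transporters, 6 were touched and none for 50%. Of 77 MADS-box genes, 4 were touched, namely AGL55, AGL93, AGL94 and AGL101. All 4 lacked K4 peaks in both 35S::ULT1 and both Ler lists. AGL101 did overlap a merged K4 region (chr5:9518201-9520400) whose reads were tested in both comparisons described below. The 4 belong to the MADS-box genes, whose best known members specify floral organs, but none is one of the floral identity genes listed above. Of other transcription factor families, 2 of 67 WRKY (2.99%), 2 of 93 NAC (2.15%) and 1 of 120 MYB genes (0.833%) were touched, against 1.14% of all protein-coding genes. The shares above were 3.06% for cytochrome P450, 9.09% for expansins, 3.23% for xyloglucan hydrolases and 9.09% for channels and exchangers. They were 4.84% for ABC transporters and 5.19% for MADS-box genes. Also touched were 7 of 138 receptor-like kinase or protein genes (5.07%) and 2 of 105 glycosyl- or glutathione transferase genes (1.90%).

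For the wall and metabolic genes among these, ratios are given one by one, and their levels again depend on the scaling of each list. EXPA15 was held by peaks with ratios of 1.87 and 1.98 in 35S::ULT1, next to 4.79 and 4.64 in ref6-3. EXLA2 had 1.37 and 1.62 in 35S::ULT1, next to 5.16 and 3.11 in ref6-3, and XTH12, which remodels xyloglucan, had 1.74 and 1.73 in 35S::ULT1, next to 5.63 and 5.30 in ref6-3. In each of these, both ref6-3 lists were above both 35S::ULT1 lists. CYP96A1 was an exception, with 2.01 and 2.38 in 35S::ULT1, next to 1.98 and 1.98 in ref6-3. K4 trimethylation differed among them too. EXLA2 had K4 cover of 100 and 86.4% of its body in 35S::ULT1, against 100 and 100% in Ler, and 86.4 and 86.4% in ref6-3, against 86.4 and 100% in Col-0. XTH12 had no K4 peak in these 8 lists. EXPB3 had 0 and 69.0% in 35S::ULT1, against 0 and 69.0% in Ler, so K4 was seen in the lists numbered 3 and not in those numbered 1.

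Several member genes act in responses to signals and stress, and these were picked after their values were seen. CBF2, a cold-induced activator, was covered for 60.9% (chr4:13015601-13016200), with ratios of 2.29 and 2.62 in 35S::ULT1, next to 7.49 and 4.31 in ref6-3. ARR15, a type-A response regulator that dampens cytokinin signalling, was covered for 50.7% (chr1:28132201-28133000), with 2.23 and 2.51 in 35S::ULT1, next to 1.61 and 2.29 in ref6-3. CLE1, which encodes a small signalling peptide, was covered for 72.4% and NTL8, a membrane-tethered NAC factor, for 69.0%. LEA4-5, a late embryogenesis abundant protein made under water deficit, was covered for 81.1% and the small heat shock protein gene HSP17.6II for 68.1%. These genes differed in K4 trimethylation. CBF2 had K4 cover of 81.1 and 81.1% of its body in 35S::ULT1, against 81.1 and 81.1% in Ler, and 81.1 and 96.5% in ref6-3, against 81.1 and 81.1% in Col-0. CLE1, NTL8 and LEA4-5 had no K4 peak in any of these 8 lists. H3K27me3 and K4 peaks thus overlapped at CBF2 in both mutants, and a list of peaks from whole seedlings does not show whether both marks sat in the same cells.

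K4 trimethylation divided the shared gains into 3 nearly equal classes. K4 peaks covered at least 50% of 117 (35.3%) in all 12 K4 lists, no base pair of 111 (33.5%) in any, and 103 lay between. In segments new in 35S::ULT1 only, 608 of 1219 (49.9%) were covered in all 12 lists, and in segments new in ref6-3 only, 136 of 425 were. The K4-covered class was narrower, with a median of 600 bp, and 96.5% of its base pairs lay in protein-coding genes. The class without K4 had a median of 800 bp, 77.2% of its base pairs lay in such genes, and it held 19 of the 27 shared gains that touched none. The median H3K27me3 ratio of the K4-covered class was 1.81 and 2.08 in 35S::ULT1, next to 3.07 and 2.80 in ref6-3. The class without K4 had medians of 1.72 and 1.79 in 35S::ULT1, next to 2.47 and 2.50 in ref6-3.

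The extent of K4 peaks at the shared gains differed by about 2 percentage points in both mutants, in opposite directions, and neither difference passed a test. In 35S::ULT1, K4 peaks covered 48.6 and 45.9% of the base pairs of the shared gains, against 45.3 and 45.4% in Ler. The means were 47.3% ± 1.87 in 35S::ULT1 and 45.4% ± 0.101 in Ler (SD, n = 2 each), and the groups did not overlap. The difference of 1.89 percentage points had p = 0.333 in a two-sided exact permutation test, the smallest p that 2 against 2 libraries allow. In ref6-3, K4 peaks covered 36.6 and 40.9%, against 39.7 and 42.0% in Col-0. The means were 38.8% ± 3.08 in ref6-3 and 40.8% ± 1.66 in Col-0 (SD, n = 2 each), and the groups overlapped. The difference of -2.07 points had p = 0.667 in the same exact permutation test, and it was 0.107 points without ref6-3 list 1. The ult1 mutants had 43.0% ± 0.555 (ult1-2) and 41.8% ± 3.78 (ult1-3). Over the nuclear genome, K4 peaks covered 16.94 and 18.05% in 35S::ULT1, against 16.22 and 17.34% in Ler. They covered 17.56 and 18.62% in ref6-3, against 17.02 and 17.61% in Col-0. Each mutant list thus covered more of the genome than the wild-type list of the same number. At the shared gains this held for 35S::ULT1 only. Whether the differences there departed from the list-wide ones was not tested. K4 lists numbered 1 and 3 in the Ler family stood apart, with median ratios over all peaks of 2.44 to 3.07 in the lists numbered 1 and 4.30 to 4.47 in the lists numbered 3. Between lists of the same number, 35S::ULT1 minus Ler was 3.28 points for number 1 and 0.50 points for number 3, and ref6-3 minus Col-0 was -3.07 points for number 1 and -1.07 points for number 2.

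**Figure D2:**
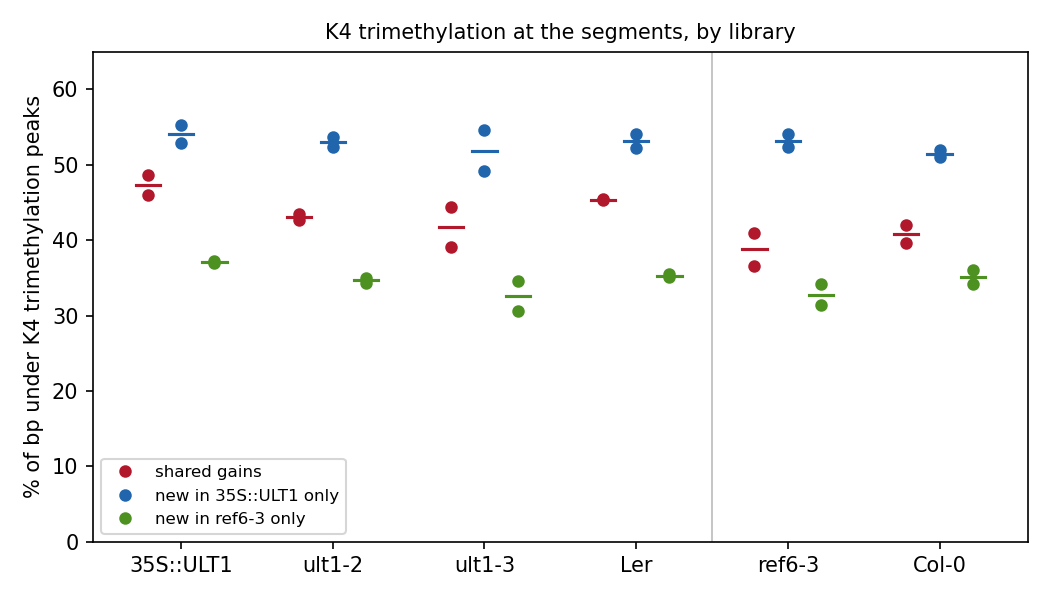
Percent of base pairs under K4 trimethylation peaks (y axis) in each library of 6 genotypes (x axis), for the 331 shared gains and the 2 sets new in 1 mutant; points are libraries and bars their means. The shared gains lie between the other sets in every genotype, at 47.3% in 35S::ULT1 against 45.4% in Ler and 38.8% in ref6-3 against 40.8% in Col-0.

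Gene by gene, K4 cover was called lower at 3 member genes in ref6-3, and in both mutants the calls depended on the libraries fitted. The percent of the gene body under K4 peaks was tested with limma over all protein-coding genes with K4 cover. In ref6-3 against Col-0, 73 of the 120 member genes could be tested, 3 were called lower and none higher at an adjusted p under 0.05, against 0.442% of all genes tested called lower and 0.695% called higher. AT5G03390 was covered for 0 and 21.1% in ref6-3, against 49.8 and 49.8% in Col-0 (adjusted p = 7.80e-08). GSTU14, a tau-class glutathione transferase, was covered for 0 and 64.3% in ref6-3, against 82.3 and 82.3% in Col-0 (adjusted p = 0.00872). AT3G04960 was covered for 17.4 and 0% in ref6-3, against 26.1 and 25.6% in Col-0 (adjusted p = 0.00869). Both ref6-3 libraries lay below both Col-0 libraries at each of the 3, with list 2 of ref6-3 nearer to Col-0 at GSTU14. Without ref6-3 list 1, AT5G03390 and GSTU14 did not pass (limma adjusted p = 1 for each), and AT3G04960 did not pass without ref6-3 list 2 (limma adjusted p = 1) or without either Col-0 library, and GSTU14 did not pass without either Col-0 library. Among all 209 touched genes that could be tested, 7 were called lower and none higher. The other 4 were MIOX1, a myo-inositol oxygenase, the receptor-like protein gene RLP22, AT5G16980 and AT5G64687. MIOX1 was at 0 and 0% in ref6-3, against 45.9 and 45.9% in Col-0 (adjusted p = 2.15e-17), and its shared gain also covered 45.9% of the gene. MIOX1 alone of the 7 kept its call in every alternative fit run. The residual SD was raised to a floor of 1 window of 200 bp before limma shrank it, so the SD used in the test could be lower. Without that floor none of AT5G03390, GSTU14 and AT3G04960 passed. In 35S::ULT1 against Ler, 83 member genes were tested with limma and none was called at an adjusted p under 0.05. At an unadjusted p under 0.05 there were 2 of the 83, beside 137 of all 18889 genes tested. That fit held all 8 Ler-family libraries. With the 4 libraries of 35S::ULT1 and Ler alone, the same form of fit as for ref6-3, 2 member genes were called higher and 1 lower, beside 120 higher and 35 lower of all 18679 genes tested. Without 35S::ULT1 list 3, 3 member genes were called higher and none lower, beside 94 higher and 23 lower of 18784. In the fit of 8 libraries, 0.0159% of all genes tested were called higher and 0.0% lower. AT5G55650 was at 0 and 0% in 35S::ULT1, against 66.3 and 66.3% in Ler, and AT2G03505 was at 65.4 and 52.3% in 35S::ULT1, against 39.2 and 0% in Ler, both with an adjusted p of 1.

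K4 reads inside peaks were tested as well, and this test was chosen after the data had been seen. These counts still depend on where peaks were drawn, and a region with no peak in 1 library of the fit was not tested. Reads were summed over merged K4 regions with a peak in every library of the fit and tested with edgeR, and levels are given in CPM, reads per 1e6 reads in K4 regions. In ref6-3 against Col-0, 174 tested regions shared base pairs with a shared gain, 2 were called lower and none higher at an adjusted p under 0.05, against 0.0855% of all regions called lower and 0.0263% higher. The first lay over MYB59, a MYB transcription factor, with 32.2 and 37.0 CPM in ref6-3, against 79.0 and 74.3 in Col-0 (log2 fold change -1.15, edgeR adjusted p = 0.0229). The second lay over CRK21, a cysteine-rich receptor-like kinase, with 14.8 and 13.3 CPM in ref6-3, against 42.7 and 48.03 in Col-0 (log2 fold change -1.70, edgeR adjusted p = 0.0229). The shared gains at MYB59 (chr5:24082401-24083000) and CRK21 (chr4:12180201-12181000) were also 2 of 17 that the paired-end Col-0 list covered with H3K27me3, for 100% of their length. Both calls held without any 1 of the 4 libraries, with adjusted p up to 0.0423. Reads were not called at AT5G03390 and GSTU14, which were called lower on K4 cover. AT5G03390 had 126 and 143 CPM in ref6-3, against 148 and 167 in Col-0 (edgeR adjusted p = 0.761). GSTU14 had 40.3 and 55.8 CPM in ref6-3, against 58.4 and 59.0 in Col-0 (edgeR adjusted p = 0.894). With same-numbered libraries fitted as a block, 29 of the 174 were called lower and 1 higher, against 2.30% and 1.91% of all regions. The number of calls without a block also depended on the libraries. Without Col-0 list 2 there were 17 lower and 2 higher, against 0.835% lower and 1.99% higher of all regions, and without Col-0 list 1 there were 5 lower, against 0.158% lower of all regions. Leaving out ref6-3 list 1 or list 2 left 1 ref6-3 library, and for these fits only the median fold change is given below.

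Over the 174 regions the fold changes in ref6-3 were shifted towards lower values, though few regions passed on their own without the block. The log2 fold change was below 0 in 123 of the 174 (70.7%), with a median of -0.08, against 51.2% of all 15201 regions and a median of -0.0024. Regions at segments new in ref6-3 only had a median of -0.10, with 76.2% below 0, and regions at segments new in 35S::ULT1 only had a median of 0.01. At an unadjusted p under 0.05 by edgeR, 32 of the 174 were lower, beside 384 of all 15201 regions. The median of the 174 was -0.02 without ref6-3 list 1 and -0.17 without ref6-3 list 2. It was -0.13 without Col-0 list 1 and -0.04 without Col-0 list 2, so its size depended on the libraries of both genotypes. In 35S::ULT1 against Ler, none of 167 regions passed at an adjusted p under 0.05 by edgeR. Of all 14510 regions, 0.0% were called in either direction. At an unadjusted p under 0.05 there were 6 of the 167, beside 303 of the 14510. The median log2 fold change of the 167 was 0.04, with 64 (38.3%) below 0. The difference between the 2 mutants in this respect was not tested.

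Among the regions that were not called, some were low in both mutants, and these were picked after their values were seen. At AT4G36470 K4 reads were 20.8 and 26.9 CPM in ref6-3, against 58.3 and 55.1 CPM in Col-0 (log2 fold change -1.25, edgeR adjusted p = 0.0955). At the same region they were 41.7 and 31.3 CPM in 35S::ULT1, against 58.2 and 52.0 CPM in Ler (log2 fold change -0.59, edgeR adjusted p = 1.00). At AT3G21530 they were 49.0 and 54.4 CPM in ref6-3, against 70.5 and 72.3 CPM in Col-0 (edgeR adjusted p = 0.175), and 64.4 and 69.9 CPM in 35S::ULT1, against 81.3 and 77.4 CPM in Ler (edgeR adjusted p = 1.00). Both mutant libraries lay below both wild-type libraries in each of these 4 comparisons. Over all tested regions at shared gains, this was so in 17 of 167 for 35S::ULT1, and both libraries lay above in 21. For ref6-3 both lay below in 55 of 174 and above in 16. At CYP96A1 the values were 52.5 and 54.9 CPM in ref6-3, against 71.5 and 67.7 CPM in Col-0 (edgeR adjusted p = 0.169), and 56.9 and 66.6 CPM in 35S::ULT1, against 63.0 and 68.3 CPM in Ler, where the groups overlapped. At the potassium transporter gene KT2/3 they were 44.3 and 48.5 CPM in ref6-3, against 62.0 and 58.4 CPM in Col-0 (edgeR adjusted p = 0.252), and 50.6 and 51.8 CPM in 35S::ULT1, against 54.9 and 51.9 CPM in Ler (log2 fold change -0.05). The region at TPR12 was the one with the lowest p among those with more reads in ref6-3, with 29.4 and 33.6 CPM in ref6-3, against 18.5 and 21.4 CPM in Col-0 (edgeR adjusted p = 0.468).

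**Figure D3:**
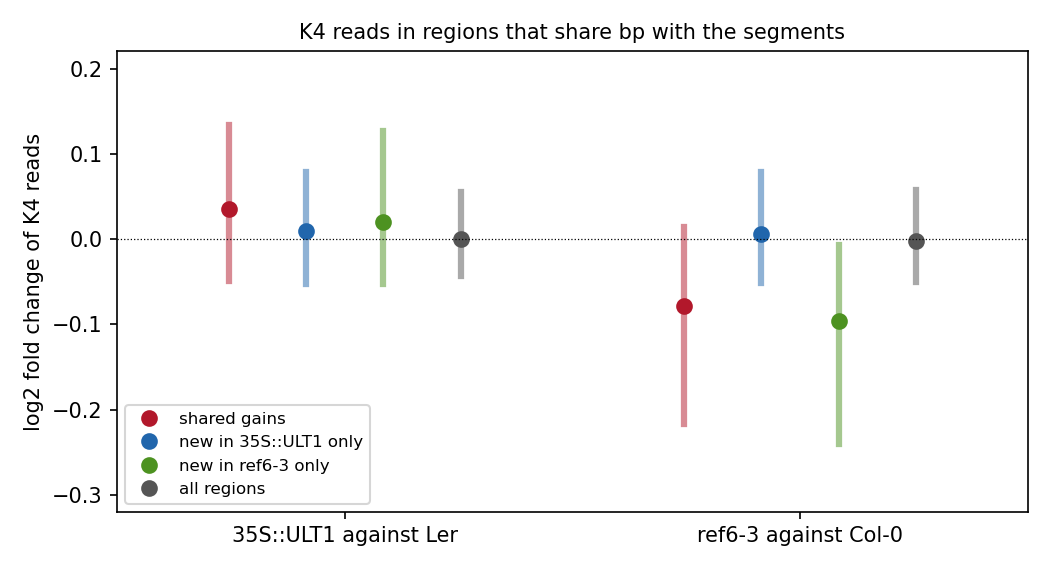
Log2 fold change of K4 reads (y axis) in merged K4 regions for 35S::ULT1 against Ler and ref6-3 against Col-0 (x axis), by the set of segments they share base pairs with; dots are medians and bars run over the quartiles. In ref6-3 the medians at the shared gains (-0.08) and at segments new in ref6-3 only (-0.10) lie below that of all regions, and in 35S::ULT1 the median at the shared gains is 0.04.

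**Figure D4:**
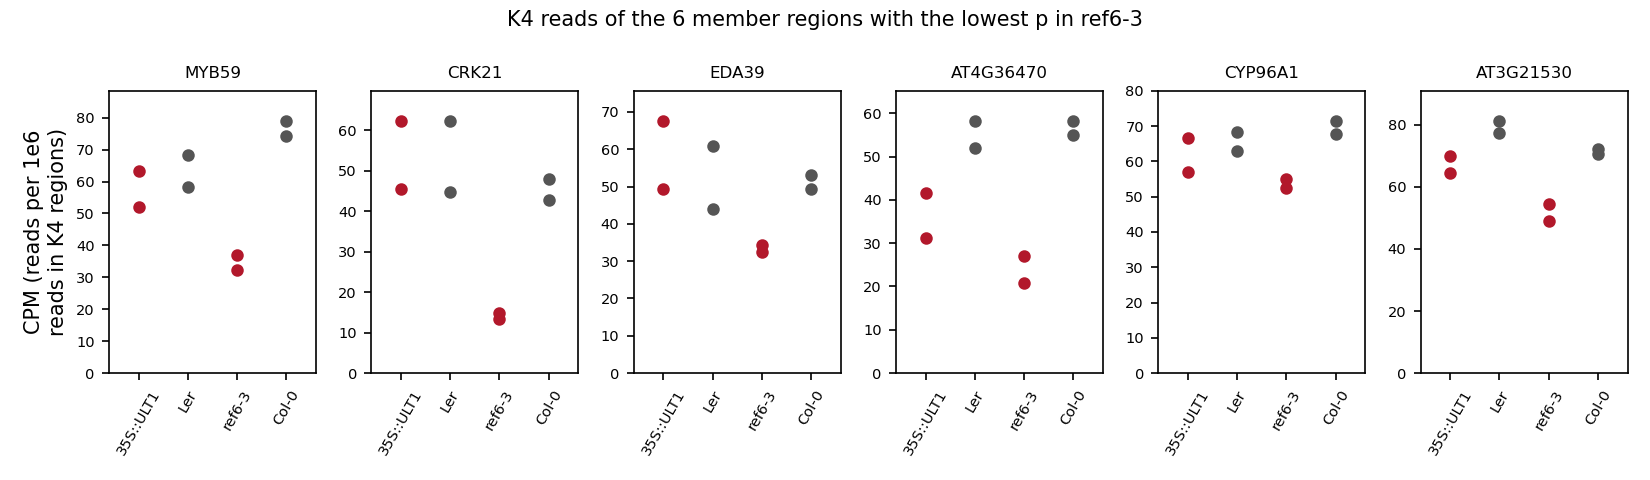
K4 CPM, reads per 1e6 reads in K4 regions (y axis), in 35S::ULT1, Ler, ref6-3 and Col-0 (x axis) for the 6 regions with the lowest p in ref6-3 against Col-0, named by the gene that holds the shared gain; points are libraries. At MYB59 both ref6-3 libraries (32.2 and 37.0) lie below both Col-0 libraries (79.0 and 74.3), and of the 6 regions the ones at MYB59 and CRK21 were called.

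The ult1 mutants carried almost none of the shared gains, as was the case by rule in Ler. Of the 331 shared gains, 0 and 4 were covered for at least 50% in the 2 ult1-2 lists, and 0 and 15 (4.53%) in the 2 ult1-3 lists. None was covered in all 4, and 3 were covered in list 3 of both mutants. The 15 touched WRKY64, WRKY74, CRK5, CRK21 and the xylan synthesis gene FRA8, among others, and the 4 touched AGL55, CRK5, UF3GT and RGXT2. These mutants share their Ler wild type with the rule, and H3K27me3 covered 19.1 to 20.9% of the nuclear genome in the 4 lists.

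Among the paired-end lists, clf-28, which lacks the PRC2 subunit CLF, covered the most shared gains. The clf-28 list covered 29 of the 331 (8.76%, Wilson 95% interval 6.17 to 12.3%) for at least 50%, swn-7 covered 10 (3.02%), ult1-3 covered 7 (2.11%), and paired-end Col-0 covered 17 (5.14%, interval 3.23 to 8.07%). The double mutants had fewer, with 6 (1.81%) for ult1-3 joined to clf-28 and 4 (1.21%) for ult1-3 joined to swn-7. These intervals cover counting error only, and each genotype has 1 list, so no test was made. The mark covered less of the genome in clf-28, 11.4% against 15.9% in paired-end Col-0. Of the shared gains, 18 were covered in clf-28 and not in paired-end Col-0, 6 in Col-0 and not in clf-28, and 11 in both. Further, 25 were covered in clf-28 and not in ult1-3 clf-28, and 2 the other way round. Segments new in 35S::ULT1 only were covered in clf-28 at 4.02% and those new in ref6-3 only at 1.18%, against 1.31% and 1.65% in paired-end Col-0. In all, 289 shared gains were covered in none of the 6 paired-end lists, 276 in none of the 10 further lists, and none in all 6.

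**Figure D5:**
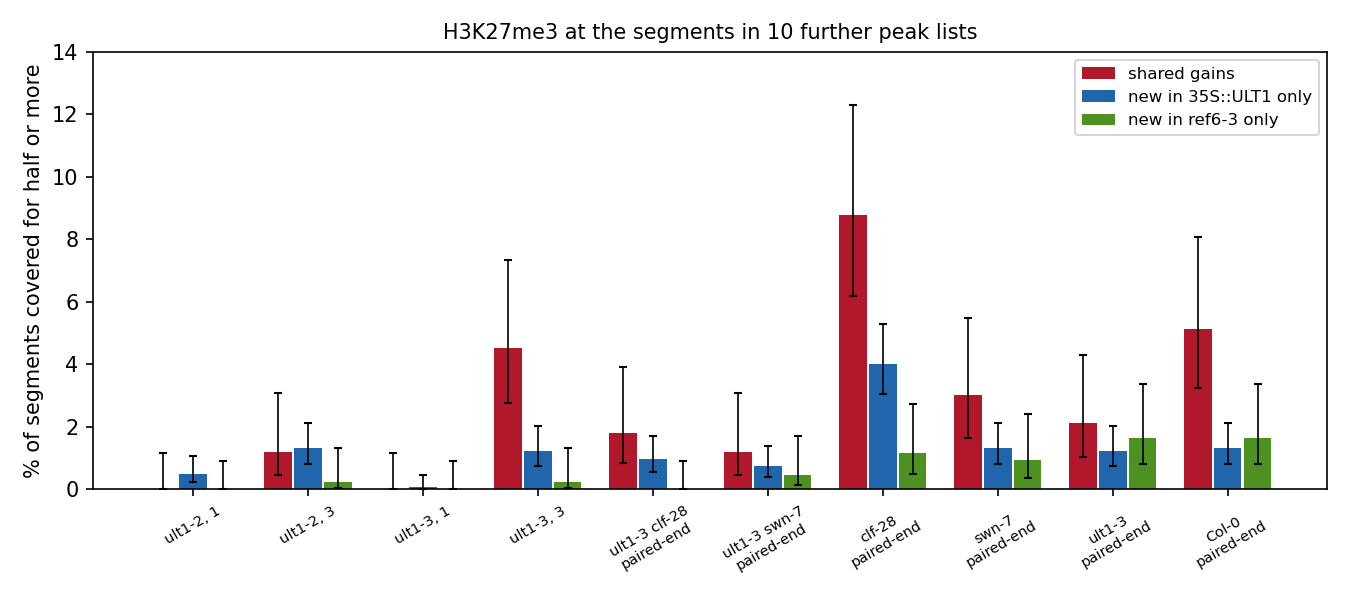
Percent of segments covered by H3K27me3 for 50% or more of their length (y axis) in 4 ult1 lists and 6 paired-end lists (x axis), for the shared gains and the 2 sets new in 1 mutant; error bars are Wilson 95% intervals. The highest bar is that of the shared gains in clf-28, at 8.76%, against 5.14% in paired-end Col-0.

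The 3 widest shared gains covered in clf-28 and not in paired-end Col-0 lay over CYP76C1, AT4G25580 and the cation exchanger gene CAX7. At CYP76C1 the clf-28 peak covered 100% of the segment. It covered 55.6% at AT4G25580 (chr4:13056801-13058600) and 85.7% at CAX7 (chr5:5902801-5904200). At CAX7 the ratios were 2.43 and 2.60 in 35S::ULT1, next to 6.09 and 4.80 in ref6-3. Counted over genes, 2 of the 117 member genes not marked over 50% or more in paired-end Col-0 were so marked in clf-28 (CYP76C1 and CAX7), against 5.06% of all such genes. In swn-7 there were also 2 of 117 (AT1G05740 and CYP96A1), against 2.96% of all. In ult1-3 and in its double mutants with clf-28 and swn-7 there were 0 of 117, against 2.98%, 1.19% and 2.68% of all. The 2 of 117 amount to 1.71%, below the share of all genes in both clf-28 and swn-7.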

How the data were processed

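ChIP-seq peak lists of 8-day-old seedlings were used. TAIR10 was the genome build, and BWA, SAMtools, Picard, bedtools and SICER 1.1 were among the tools, per the submitters' processing notes; their settings are not given. For the single-end libraries, ChIP reactions run as technical repeats on 1 nuclear extract were pooled, per the labels' protocols. The authors deposited 24 single-end lists with, per peak, a ChIP read count, a control read count, a ratio and a q-value (p-value adjusted by the authors), and 6 paired-end lists with 1 score of unstated unit, used only for position. Column meanings were read from the values and from the column order of SICER. Control counts were not used. The deposited values come without total depth, which is unknown. Library numbers are those of the list names; in 2 K4 lists (Ler and ult1-2) the number differs from the labels, and these were given to the genotype only. The antibody tag names histone H4 for the K4 libraries, so the mark is called K4 trimethylation.

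The members, lists and tests were chosen with earlier results of these data known. Gene positions came from a RefSeq table of TAIR10.1, and K4 peaks aligned best with genes at a shift of 0 bp on each chromosome. A genome sequence was not used here, so no sequences are shown. Genes were named by fixed rules: those covered for 50% by the 15 widest members, list genes touched, limma calls, and the 3 widest members per state; others are said to be chosen later. K4 cover of gene bodies was tested with limma 3.58.1 (trend, robust, Benjamini-Hochberg, residual SD floor of 1 window set before shrinkage, 8 Ler-family or 4 Col-0 libraries). K4 reads were tested with edgeR 4.0.16 (quasi-likelihood, TMM). Both were tested on simulated data. Alternatives were minimum length, peak threshold, equal list lengths, leaving out lists, cover limits, the floor, the replicate block and the libraries in the fit.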

Additional observations from a re-analysis of the deposited data

How the results depend on the processing

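The number of shared gains was 109 at a minimum length of 1000 bp, 61 with equal numbers of peaks in every list and 960 with wild-type peaks cut out, and 314 were not touched by paired-end Col-0. Leaving out each list gave 333 to 394. Member genes numbered 72, 29, 258 and 26 with a minimum of 1000 bp, equal peak numbers, 20% of the body and 80% of the body, against 120. Calls among member genes in 35S::ULT1 against Ler were 1 with the replicate block and 3 with 4 libraries, and 0 to 3 leaving out each list; in ref6-3 against Col-0 they were 2 with the replicate block. With the replicate block, limma called 89 genes higher and 30 lower of all 18889 tested in 35S::ULT1, of which 83 were member genes. In ref6-3 it called 101 higher and 78 lower of all 18561 tested, of which 73 were member genes. With 4 libraries it called 120 higher and 35 lower of all 18679 tested in 35S::ULT1, of which 79 were member genes. The K4 cover difference of ref6-3 minus Col-0 changed sign, to 0.107, without ref6-3 list 1, and ranged from -4.24 to 0.107. edgeR calls on K4 reads in ref6-3 were 30 (29 lower, 16.7% of 174) with the replicate block, where 2.30% of all regions were called lower and 1.91% higher, and 3 to 19 leaving out each list. Same-numbered K4 libraries deviated together (r of 0.441 to 0.530 in the Ler family, 0.360 in ref6-3 and Col-0). In the Ler family their median ratios over all peaks also went with the number, at 2.44 to 3.07 for number 1 and 4.30 to 4.47 for number 3. What a shared number stands for is not stated, and each group has only 2 numbers. In the block, the exact permutation p of both K4 cover differences was 0.5. Coverage in clf-28 was 6.04% at 80% of length, and in swn-7 5.50% at 1000 bp or more; the other 28 of 30 such values stayed within the interval. For 7 called genes, 29 of 49 alternative fits lost the call and none reversed. Where 1 library of a genotype was left, its spread was assumed to equal that of the others. Total depth is unknown, so what depth limits was not tested.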
